A study of Mus musculus with 7 samples.

Results

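miR-320-3p, the main mature strand of the mouse Mir320 hairpin, was followed together with its opposite strand miR-320-5p through 7 libraries of Ago2-bound small RNA from mouse plasma. Both strands were present, so 2 of the 640 miRNAs in the counts are described. miR-320-3p was selected on its measured values, because it was lower in all 4 libraries taken after status epilepticus (SE). Its difference between SE and control is therefore given as a description, with no test.

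Plasma came from adult male C57BL/6JOlaHsd mice. SE mice had received kainic acid into the amygdala and a benzodiazepine to limit mortality, and control mice had received PBS into the same site. Each library was 1 pool of plasma from 10 mice. Control pools were taken at 4, 8 and 24 h, and SE pools at these same times and after 2 weeks. Following the study's methods, the 2-week SE library was set against control 24 h, so the comparisons at 24 h and 2 weeks share 1 control. Each condition has a single library, so the differences given have no replicate check, and the spread among mice within a pool is not seen. Where values are listed without their times, they are in time order (controls 4, 8, 24 h and then SE 4, 8, 24 h, 2 weeks). Control 4 h stood apart from the other libraries, with 232 miRNAs holding at least 1 count against 314 to 399 elsewhere and the lowest total of counts, 2043220. The largest total was that of SE 4 h, 5405357.

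Most animal miRNAs are cut out of a long primary transcript by Drosha in the nucleus, and the resulting hairpin is cut again by Dicer in the cytoplasm before 1 strand is loaded into an Argonaute protein such as Ago2. The miR-320 hairpin is an exception. It is transcribed directly as a short capped precursor that goes to Dicer without Drosha, and the cap on its 5′ end favours loading of the 3p strand. miR-484 is another miRNA known to be made without Drosha. Mirtrons such as miR-877 are released as short introns by splicing, miR-1839 comes from a small nucleolar type RNA, and miR-451a needs Drosha but is finished by Ago2 in place of Dicer. The study's literature table lists miR-320-3p under neurons, although the miRNA is widely expressed.

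Mir320 lies at chr14:70443510-70443591 of GRCm38 on the plus strand, and its annotated 82 bases lie outside the neighbouring gene. The annotated start of Polr3d, which encodes a subunit of RNA polymerase III and runs on the minus strand, is 63 bases away. Mir484 (chr16:14159626-14159692, plus strand) lies 3583 bases before the start of Nde1, and Mir877 (chr17:35960730-35960814, minus strand) lies in an intron of Abcf1. RefSeq (GRCm38.p6) held mature sequences for 11 of the 16 miRNAs looked up. Those shown are first miRNAs made by unusual routes, against which miR-320-3p is set, and then miRNAs whose levels ran like it or that also lay under every control in SE, with the seed (bases 2 to 8) in capitals.
miR-484: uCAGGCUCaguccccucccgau
miR-877-5p: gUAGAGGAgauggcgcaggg
miR-1839-5p: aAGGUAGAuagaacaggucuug
let-7b-5p: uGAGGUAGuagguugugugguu
let-7c-5p: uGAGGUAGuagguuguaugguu
let-7g-5p: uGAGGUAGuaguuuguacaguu
miR-6240: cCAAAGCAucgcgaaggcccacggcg
miR-221-3p: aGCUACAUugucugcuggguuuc

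The 3 let-7 miRNAs share the seed GAGGUAG, and no other seed is shared among those shown. let-7b-5p and let-7c-5p differ at 1 position. Reads were counted with up to 2 mismatched nucleotides, so how reads were divided between let-7b-5p and let-7c-5p is uncertain. let-7g-5p differs from them at 4 and 3 positions.

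miR-320-3p was abundant in every library and lower in each SE library than in each control library. Levels are CPM, read counts brought to a common library size, with the sizes adjusted by TMM in edgeR, a scaling that assumes most miRNAs keep their share. The control levels were 2968 CPM at 4 h, 2307 CPM at 8 h and 3506 CPM at 24 h. The SE levels were 1322 CPM at 4 h, 1335 CPM at 8 h, 1105 CPM at 24 h and 1047 CPM at 2 weeks. All SE values lay under all control values. The mean of the 3 controls, 2927 CPM (SD 600.2), was 2.43 times the mean of the 4 SE libraries, 1202 CPM (SD 148), where the SDs are over libraries of different time-points. In plasma pools, fewer contributing cells and less miRNA released per cell cannot be told apart.

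With TMM, the highest SE library, SE 8 h, lay 0.79 on the log2 scale under the lowest control, control 8 h. This gap is not set by the level in control 4 h. It was wider than the range within the controls (0.60) and within the SE libraries (0.35). With library size only the gap was 0.72 in size and narrower than the range within SE, which grew to 0.88. The lowest control was then control 4 h, at 2531 CPM. For comparison, 107 miRNAs reached 50 CPM in every control. Their median range across controls was 0.80, and 35 had a smaller range than miR-320-3p. With TMM, the order from highest to lowest was control 24 h, control 4 h, control 8 h, SE 8 h, SE 4 h, SE 24 h and SE 2 weeks. With library size only, SE 2 weeks (1272 CPM) lay above SE 4 h (1041 CPM) and SE 24 h (834 CPM). On the TMM scale, the 95% Wilson intervals of SE 8 h (1298 to 1373 CPM) and SE 4 h (1287 to 1357 CPM) overlapped. Those of SE 24 h (1067 to 1145 CPM) and SE 2 weeks (1011 to 1084 CPM) overlapped as well. The study's methods name no molecular identifiers, and such intervals cover counting error only.

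**Figure D1:**
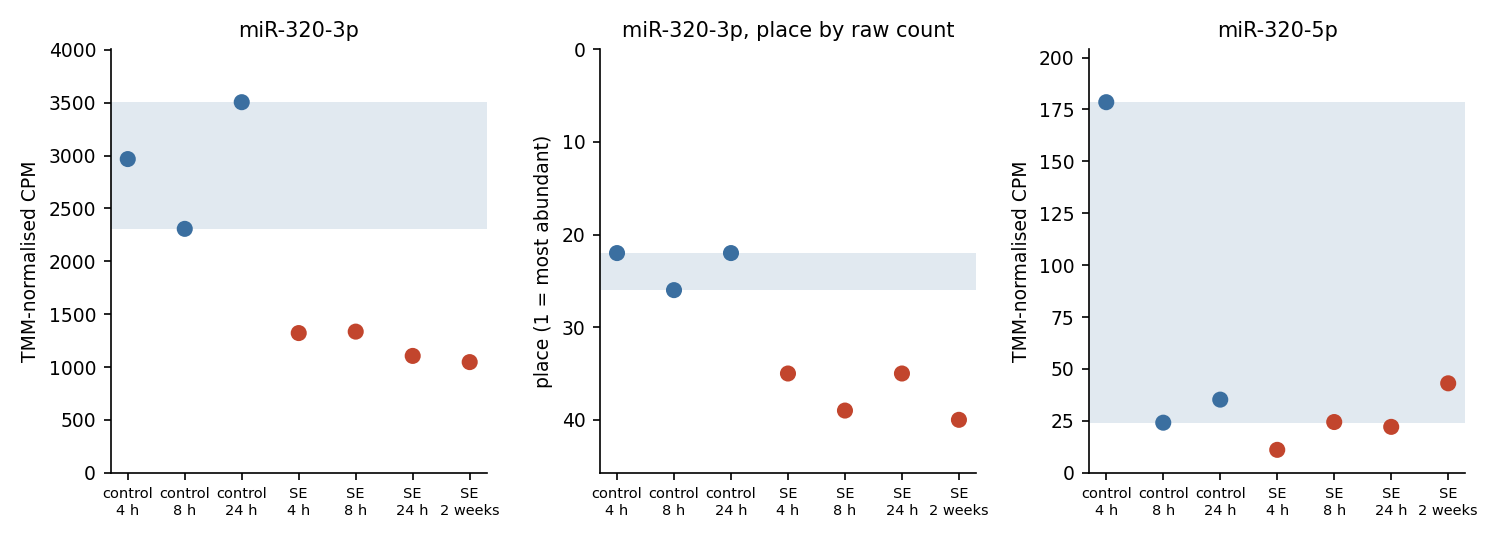
Levels of miR-320-3p (left) and miR-320-5p (right) in TMM-normalised CPM, and the place of miR-320-3p by raw count among all miRNAs of the library (centre, axis reversed), with 1 point per library (blue control, red SE) and the range of the 3 controls shaded. All 4 SE points of miR-320-3p lie outside the shaded range, whereas SE 8 h and SE 2 weeks lie within it for miR-320-5p.

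The raw counts and ranks carry the same pattern once depth is considered. Raw counts of miR-320-3p were 5171, 9950 and 13834 in the controls and 5627, 4863, 3100 and 3232 in SE. The raw count in SE 4 h was higher than in control 4 h, but it was drawn from a deeper library. As a share of all counts, miR-320-3p was at 0.253% in control 4 h (95% Wilson interval 0.246 to 0.260) and at 0.104% in SE 4 h (0.101 to 0.107). By raw count it was the 22nd, 26th and 22nd most abundant miRNA in the controls, and the 35th, 39th, 35th and 40th in SE. Ranks within a library need no scaling.

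The 4 miRNAs nearest to it in abundance are given as a description. Over all 203 miRNAs that reached 50 CPM in some library, 3.94% lay under every control in all 4 SE libraries and 5.91% over every control, so overlap was the usual state. Ordered by mean control level, miR-320-3p was number 23. Directly above it were miR-423-5p and miR-26a-5p, whose mean log2 levels in SE minus control differed by -0.05 and 0.20. Directly under it were miR-378a-3p, a miRNA encoded within Ppargc1b, at -0.01 and let-7c-5p at -0.36, the last without overlap between the groups. The corresponding value for miR-320-3p was -1.27. miR-378a-3p, at 2051 to 3794 CPM in SE and 2263 to 2951 CPM in control, overlapped between the groups.

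At each time-point, miR-320-3p was lower in SE than in the control compared by more than 1.5-fold with TMM. At 4 h the log2 fold change was -1.17 (95% exact interval for the ratio of 2 counts, -1.22 to -1.11). At 8 h it was -0.79 (-0.84 to -0.74), the smallest of the 4. At 24 h it was -1.67 (-1.72 to -1.61) and at 2 weeks, against the same control, -1.74 (-1.80 to -1.69). These correspond to control levels 2.25, 1.73, 3.17 and 3.35 times those in SE.

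How unusual such a fold was differed between time-points. At 4 h, 165 miRNAs reached 50 CPM in SE or control, of which 30.9% were at least 1.5-fold lower in SE, and 32.1% were at least 1.5-fold higher. There miR-320-3p held place 37 from the lowest fold change. At 8 h, 15.2% of 164 miRNAs were lower and 34.8% higher, and miR-320-3p held place 13. At 24 h, 22.2% of 144 were lower and 22.9% higher, and it held place 15. At 2 weeks, 14.1% of 156 were lower and 19.2% higher, and it held place 6. Because miR-320-3p was chosen on these fold changes, nothing is read from its place beyond the description.

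**Figure D2:**
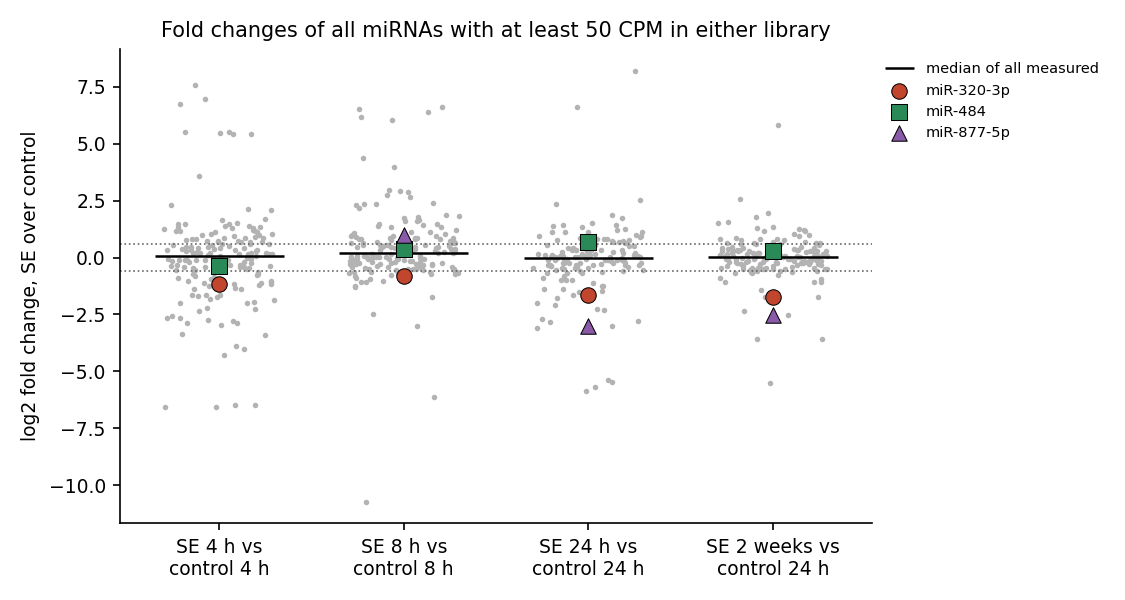
Log2 fold change of SE over control at each time-point for every miRNA reaching 50 CPM in the SE or the control library (grey points), with the median as a black line, the 1.5-fold thresholds dotted, and counts of 3 or fewer set to 3. miR-320-3p (red circles) lies below the lower dotted line at all 4 time-points, and miR-484 (green squares), with the TMM scaling drawn here, lies between the dotted lines at 4 h, 8 h and 2 weeks and above the upper line at 24 h, whereas with library size less miR-486b-5p it is past the lower line at 4 h and with library size only it is between the lines at 24 h.

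Counts of miRNAs past the threshold moved with the scaling of the libraries, and the direction for miR-320-3p did not. In every library most counts came from miR-486b-5p, a red cell miRNA, and its share bears on any scaling by total counts. At 24 h, 32 miRNAs were lower and 33 higher with TMM, but 75 lower and 13 higher with library size only. With library size less the counts of miR-486b-5p, 81 were lower and 29 higher at 4 h (51 and 53 with TMM), 45 and 41 at 8 h (25 and 57), 40 and 28 at 24 h and 28 and 23 at 2 weeks (22 and 30). Scaling moved the median log2 fold change of all measured miRNAs at 24 h from -0.02 with TMM to -0.64 with library size only. A scaling shifts all miRNAs of a comparison together, so the distance of miR-320-3p from the median is fixed by construction, at -1.23, -0.99, -1.65 and -1.76 in time order.

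The ratio of miR-320-3p to a second miRNA in the same library needs no scaling at all. Against miR-16-5p, a common reference in plasma PCR, the ratio of counts was 0.783, 0.610 and 0.713 in the controls. In SE it was 0.280, 0.445, 0.219 and 0.286, all under the lowest control. The other references, miR-191-5p, miR-103-3p, miR-423-5p and miR-484, gave the same separation, with 4 of 4 SE libraries under the lowest control for each. These ratios share the counts on which miR-320-3p was chosen. The share of all miRNAs that separate in such ratios was not computed, so they are a description. Of the references, miR-103-3p itself lay under the lowest control in all 4 SE libraries with DESeq2's size factors and with library size less miR-486b-5p, but not with TMM. The ratio to miR-423-5p, for example, lay between 0.627 and 0.950 in the controls and between 0.251 and 0.398 in SE. The smallest change was at 8 h against miR-16-5p, with a log2 change of -0.46, and the largest at 24 h against miR-484, with -2.35. At 8 h the ratios to miR-16-5p (-0.46) and miR-103-3p (-0.54) did not reach 1.5-fold.

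**Figure D3:**
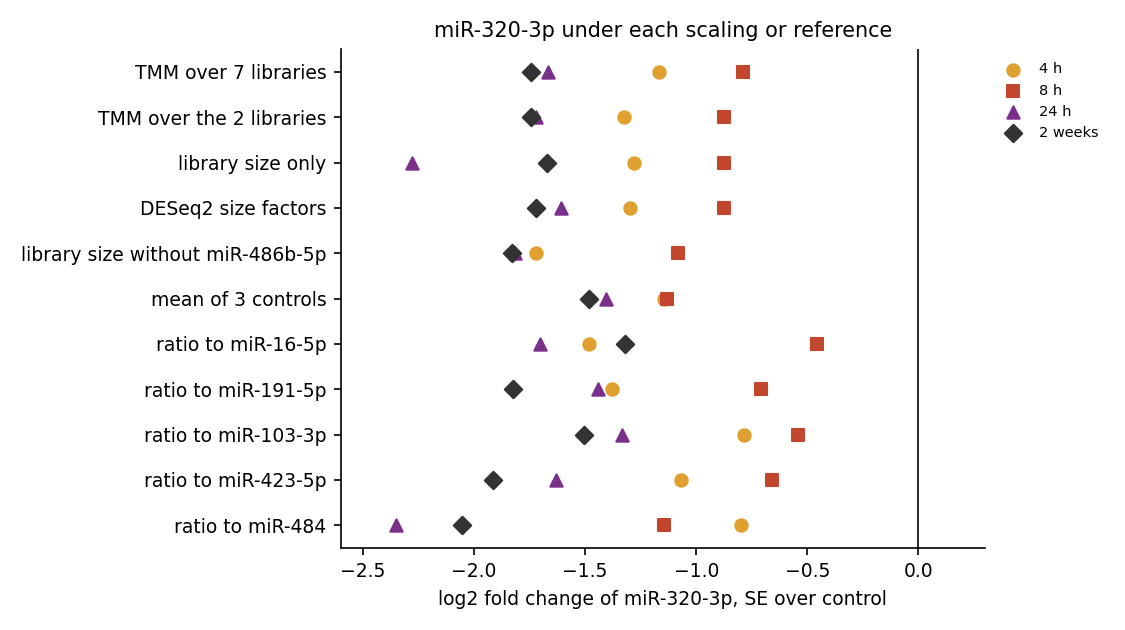
Log2 fold change of miR-320-3p in SE over control (x axis) under each scaling of the libraries, against the mean of the 3 controls, or as a ratio to a reference miRNA (rows), with 1 symbol per time-point. Every point lies below 0, and SE 8 h (red squares) is nearest to 0 in all rows except the ratio to miR-484.

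The opposite strand was scarce and did not separate SE from control. miR-320-5p had 311, 104 and 139 counts in the controls, which are 178, 24.1 and 35.2 CPM. It had 47, 89, 62 and 133 counts in SE, which are 11.0, 24.4, 22.1 and 43.1 CPM. Control 4 h was far above the other 6 libraries, and among those the SE and control levels overlapped. The log2 fold change was -4.02 at 4 h (95% exact interval -4.49 to -3.57), which rests on control 4 h. It was 0.02 at 8 h (-0.41 to 0.44), -0.67 at 24 h (-1.13 to -0.23) and 0.29 at 2 weeks (-0.06 to 0.64).

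The 3p strand therefore made up nearly all counts of the hairpin. The 5p share of both strands was 5.67% in control 4 h (95% Wilson interval 5.09 to 6.32), 1.03% in control 8 h (0.854 to 1.25) and 0.995% in control 24 h (0.843 to 1.17). In SE it was 0.828% at 4 h (0.624 to 1.10), 1.80% at 8 h (1.46 to 2.21), 1.96% at 24 h (1.53 to 2.51) and 3.95% at 2 weeks (3.34 to 4.66). Without control 4 h, the share in SE 4 h was the lowest and those in the other 3 SE libraries were above both controls. In SE 8 h there were 54.6 counts of miR-320-3p for each count of miR-320-5p, against 95.7 in control 8 h.

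Among the other miRNAs made by unusual routes, miR-484 had 417, 199.9 and 208 CPM in the controls and 323, 256, 334 and 258 CPM in SE. Its SE levels all lay within the range of the controls, whose top is control 4 h, and above both other controls. The log2 fold changes were -0.37, 0.36, 0.69 and 0.31 in time order, so with TMM it passed 1.5-fold at 24 h only, in the higher direction. These calls depended on the scaling, since the value at 24 h was 0.07 with library size only, and that at 4 h was -0.92, past 1.5-fold lower, with library size less miR-486b-5p.

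The mirtron miR-877-5p, spliced from Abcf1, had 51.6, 31.3 and 107 CPM in the controls. Its SE levels were 54.7 CPM at 4 h, 61.8 CPM at 8 h, 13.2 CPM at 24 h and 18.8 CPM at 2 weeks. The latter pair lay under all 3 controls and the former pair within their range. miR-877-5p was thus lower than control 24 h at 24 h (log2 fold change -3.02) and 2 weeks (-2.51) and higher than control 8 h at 8 h (0.98), from counts of 37 to 422. The other mirtrons listed, from Mir877, Mir1224 and Mir702, stayed under 50 CPM in every library or were absent from the counts.

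The snoRNA-derived miR-1839-5p had 61 counts in control 4 h and between 878 and 1777 in the other 6 libraries (284 to 448 CPM). The log2 fold changes were 3.58, 0.57, 0.13 and -0.50 in time order, and the first of these rests on control 4 h. miR-451a, the Dicer-independent red cell miRNA, was at 1.72 to 20.5 CPM, with 3 to 81 counts per library.

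**Figure D4:**
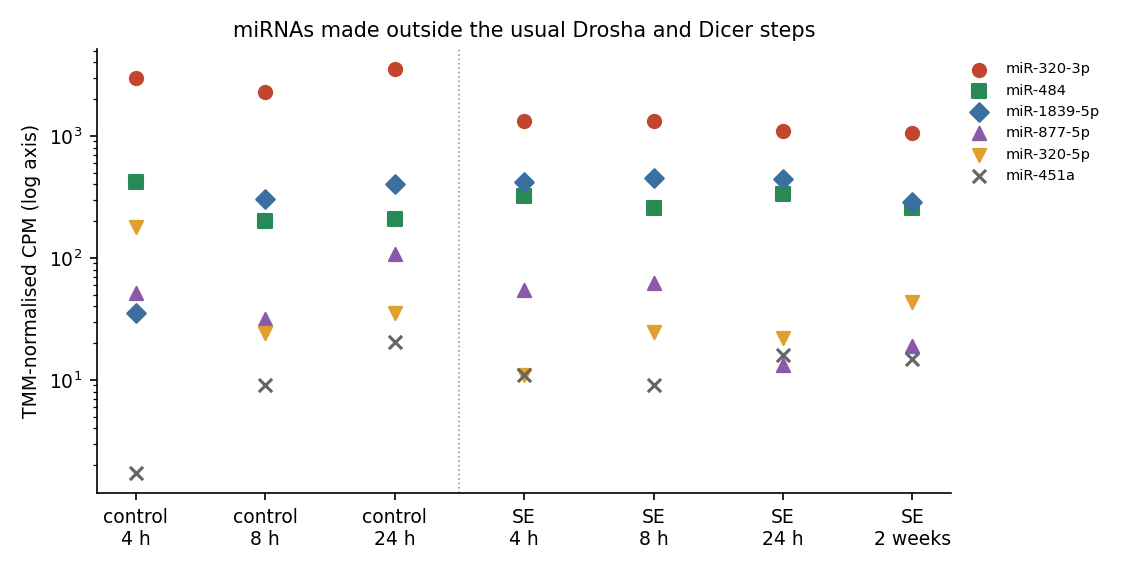
Levels of miR-320-3p, miR-320-5p and 4 other miRNAs made by unusual routes in each library (TMM-normalised CPM, log axis, 1 symbol per miRNA), with control libraries left of the dotted line. The SE points of miR-320-3p, chosen for this, lie below its control points, a pattern that 3.94% of the 203 miRNAs reaching 50 CPM in some library had.

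Over the 3 time-points with their own control, edgeR's quasi-likelihood test with the time-point as a block was fitted across 137 miRNAs. It treats 4, 8 and 24 h as repeats of the SE effect, although they are different time-points. It called 0 miRNAs (0%) at a Benjamini-Hochberg adjusted p under 0.05, with 22 at an unadjusted p under 0.05. The 137 miRNAs include miR-320-3p, which was chosen on these data, so nothing about it is read from these counts. DESeq2 called 10, and edgeR called 14 when both 4 h libraries were left out. For miR-484 the log2 difference of SE minus control was 0.02 (standard error 0.36, 95% interval -0.92 to 0.96, adjusted p = 0.998 in edgeR), an interval wide enough to hold changes of nearly 2-fold each way. Without both 4 h libraries the difference was 0.44. For miR-1839-5p it was 1.12 (standard error 0.75, adjusted p = 0.515 in edgeR), a value that rests on control 4 h, since the log2 fold changes at 8 and 24 h were 0.57 and 0.13. The reference miRNAs miR-16-5p (-0.20), miR-191-5p (-0.24), miR-103-3p (-0.53) and miR-423-5p (-0.30) had adjusted p-values of 0.439 to 0.650 in edgeR.

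In all, 203 miRNAs reached 50 CPM in some library. Of these, 8 (3.94%) lay under the lowest control in all 4 SE libraries, and 12 (5.91%) lay over the highest control in all 4. The 8 were miR-320-3p, miR-1957a, miR-6240, let-7g-5p, let-7b-5p, let-7c-5p, miR-1893 and miR-8101. miR-320-3p was the most abundant of the 8 in the mean of the controls and had the second widest gap between the groups, after miR-1893, whose log2 gap was -0.99 on 0 to 247 counts. Membership of this group follows from the rule that picked miR-320-3p, and it is given without a test.

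Apart from miR-320-3p, the best counted of the 8 were miR-6240 and the let-7 miRNAs. miR-6240 had 2168, 2306 and 1708 CPM in the controls and 1208, 1387, 723 and 1262 CPM in SE. miR-1957a had 1054, 598 and 755 CPM in the controls and 412, 310, 292 and 532 CPM in SE. Neither overlapped between the groups, with log2 gaps of -0.30 and -0.17 and mean log2 levels in SE minus control of -0.88 and -1.06.

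let-7g-5p, a member of the abundant let-7 family, and let-7b-5p were the miRNAs just inside the rule, with log2 gaps of -0.01 and -0.09 between the highest SE and the lowest control library. Just outside it were miR-221-3p, known from endothelium and platelets, at 0.03, and miR-5106 at 0.14. The gap of miR-320-3p was -0.79. let-7c-5p and let-7g-5p left the group with library size only, whereas all 8 were kept with DESeq2's size factors and with library size less miR-486b-5p. Without control 4 h, 13 miRNAs lay under the remaining controls. All 8 were among them by construction, since leaving out a control cannot remove a miRNA from the group.

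**Figure D5:**
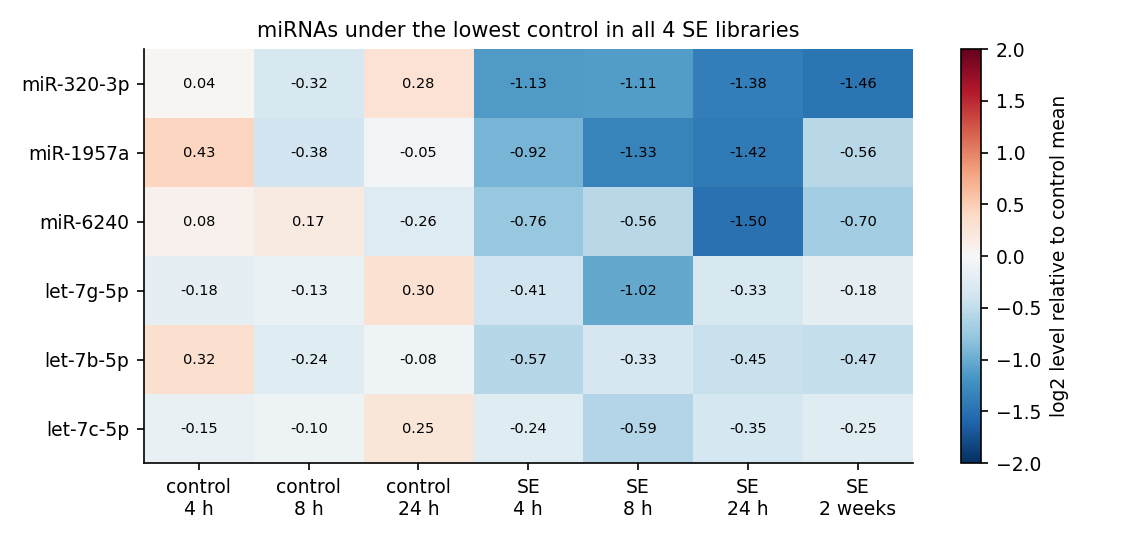
Log2 level relative to the mean log2 level of the 3 controls (colour and printed value) in each library (columns) for 6 of the 8 miRNAs under the lowest control in all 4 SE libraries, leaving out miR-1893 and miR-8101, which had 0 counts in some library. miR-320-3p has values of -1.11 to -1.46 in SE, and miR-6240 is lowest in SE 24 h.

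The profile of miR-320-3p over the 7 libraries was compared with that of 129 other miRNAs that reached 50 CPM in 4 or more libraries, as Pearson's r of log2(CPM + 1). The closest were let-7b-5p (r = 0.82), miR-1957a (0.81), miR-6240 (0.77), let-7c-5p (0.76) and miR-221-3p (0.75). The median r was -0.16, and 19 miRNAs had r over 0.5. The libraries share their depth and scaling among all miRNAs, and r over 7 points is given as a description. The least alike were miR-298-5p (-0.91), miR-532-5p (-0.84) and miR-181a-5p (-0.76), the last a miRNA known from lymphocytes and brain. miR-298-5p was at 33.9, 29.9 and 27.6 CPM in the controls and 85.3, 91.2, 80.2 and 68.0 CPM in SE. It passed the filter through the 4 SE libraries only, so the filter itself favoured a low r, and nothing is read from it. miR-181a-5p was at 7995 to 10655 CPM in the controls and 11328 to 15240 CPM in SE, without overlap with TMM. Of the 203 miRNAs reaching 50 CPM in some library, 5.91% lay over every control in this way. With library size only the groups of miR-181a-5p overlapped. Control 8 h had 45542 of its counts in a total of 3529563, and SE 24 h had 37135 in a larger total, 3718313.

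The other miRNAs that the study's literature table lists under neurons lay on both sides of control. The study's text counts more miRNAs under neurons than this table holds. Of the other 56 in the table, 25 were measured at 4 h. Of these, 6 were at least 1.5-fold lower and 7 higher in SE, against 30.9% and 32.1% of all measured miRNAs. At 8 h, 3 of 30 were lower and 16 higher, against 15.2% and 34.8% of all. At 24 h, 7 of 23 were lower and 6 higher, against 22.2% and 22.9% of all. At 2 weeks, 2 of 20 were lower and 4 higher, against 14.1% and 19.2% of all. Their median log2 fold changes were 0.15, 0.72, -0.26 and -0.06 in time order, where the medians of all measured miRNAs were 0.06, 0.20, -0.02 and 0.01. miR-22-3p, the most abundant of them, had 13689 to 16694 CPM in control and 14247 to 20687 CPM in SE, which overlapped.

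Summed markers of possible sources of plasma RNA overlapped between the SE and control groups for each source. The muscle marker was higher in SE than in the control compared at each time-point, except at 4 h with library size less miR-486b-5p. At 2 weeks that control was control 24 h. The 4 platelet and white cell miRNAs, led by miR-142a-5p, summed to 4690, 5791 and 10173 CPM in the controls and to 7433, 5721, 9380 and 10019 CPM in SE. The log2 fold changes of their sum were 0.66, -0.02, -0.12 and -0.02 in time order. The first became 0.11 with library size less miR-486b-5p. The 5 red cell miRNAs, of which 3 passed 50 CPM, summed to 891858, 552664 and 580004 CPM in the controls and to 857756, 544248, 1009500 and 520952 CPM in SE. The value of SE 24 h exceeds a whole library because its TMM-adjusted size is smaller than its total count. Plasma with a high absorbance from haemolysis had not been used by the study. miR-486a-5p had at most 1 count, and how reads were divided between it and miR-486b-5p was not checked. miR-486b-5p made up nearly all of the red cell sum. The log2 fold changes of that sum were -0.06, -0.02, 0.80 and -0.15 in time order. The value at 24 h became 0.18 with library size only. miR-144-3p, another red cell miRNA, was at 0 in control 4 h and at 155 to 414 CPM in the other 6 libraries. miR-122-5p, the defining liver miRNA, was at 0 in the 3 controls and at most 17.8 CPM in SE. Of the 5 muscle miRNAs listed, miR-133a-3p alone was counted, at 888, 793 and 75.5 CPM in the controls and 1104, 1439, 180 and 116 CPM in SE. Its log2 fold changes were 0.31, 0.86, 1.25 and 0.62 in time order, and the first became -0.24 with library size less miR-486b-5p. SE 24 h and SE 2 weeks lay above control 24 h but under control 4 h and control 8 h. Over 4, 8 and 24 h the difference of SE minus control for miR-133a-3p was 0.60 (95% interval -0.16 to 1.36, adjusted p = 0.439 in edgeR's quasi-likelihood test). Its close relative miR-133b-3p, also known from muscle but listed by the study under neurons, had 56.8, 16.7 and 16.7 CPM in the controls and 128, 123, 86.7 and 0.648 CPM in SE. It was thus above its control at 4, 8 and 24 h. At 2 weeks it was under control 24 h, on 2 counts against 66, and it was singled out after its values were seen. The 4 brain miRNAs summed to 1142, 1457 and 2273 CPM in the controls and to 1364, 1259, 1825 and 1953 CPM in SE. Among them, miR-124-3p was at 0 in 6 libraries and miR-219a-5p was absent from the counts. miR-128-3p, the most abundant, had 1072 to 2273 CPM in control and 1181 to 1953 CPM in SE and made up most of the sum. miR-9-5p had 70.0, 25.7 and 0.253 CPM in the controls and 31.9, 78.0, 39.6 and 0 CPM in SE. It was thus under the control compared at 4 h and 2 weeks and above it at 8 and 24 h, on 0 to 284 counts. The part of any of these sources in the level of miR-320-3p was not tested.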

How the data were processed

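Ago2 was immunoprecipitated from pooled plasma and its small RNA sequenced. In Chimera (version not given in the sources used here) the authors removed adapter sequence, kept reads of miRNA length and matched them by BLASTn to mouse miRBase with up to 2 mismatches. They deposited raw read counts for 640 mature miRNAs in 7 libraries. Totals were 2043220 to 5405357 counts. A floor of 3 counts is 0.555 to 1.47 CPM of the plain total and 0.696 to 1.72 CPM with TMM.

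CPM used factors from the trimmed mean of M-values (TMM) over all 7 libraries (edgeR 4.0.16, R 4.3.3), between 0.754 and 1.22. Presence was at least 50 CPM of the plain total and the threshold was 1.5-fold. The study used 50 CPM for presence in its organ comparison, and 1.5-fold together with a p-value for calls. For fold changes across miRNAs, counts of 3 or fewer were set to 3. The blocked fit used miRNAs reaching 50 CPM in 3 or more of its 6 libraries and was run on simulated data as a check of the code. Those data held no difference between time-points and no library standing apart as control 4 h does. Nothing about the calls of the fit here is read from them. Tables and figures used Python 3.11.15, scipy 1.17.1 and matplotlib 3.10.9. Loci are from GENCODE (GRCm38) and mature sequences from RefSeq.

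miR-320 and the lists of miRNAs were chosen with earlier results of these data known. The miRNAs named were members of the lists, the 5 most and 3 least like miR-320-3p, those under the lowest control in all 4 SE libraries with the 2 next outside, and the 2 neighbours in level on each side. Alternatives were other scalings (DESeq2 1.42.0 among them), controls, filters, thresholds and libraries left out. Ratios to reference miRNAs, and the alternatives for miRNAs under the lowest control, for the ranges of miR-320-3p and for marker sums, were added after seeing the data.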

Additional observations from a re-analysis of the deposited data

How the results depend on the processing

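All 52 alternative values of the 4 fold changes of miR-320-3p were negative, between -2.35 and -0.46 on the log2 scale. Those with another control, the mean of the controls or a constant added to CPM could not turn positive. Every SE value lay under every control, which is how miR-320-3p was chosen. The other alternatives rescale the same counts, so the sign is given as a description. Values that left the counting interval were, in time order, -1.28, -0.88, -2.28 and -1.67 with library size only. With library size less miR-486b-5p they were -1.72, -1.08, -1.82 and -1.83. They were -1.30, -0.88 and -1.61 at 4, 8 and 24 h with DESeq2's size factors and -1.33, -0.87 and -1.72 with TMM over the compared libraries. Against the mean of the controls they were -1.13, -1.40 and -1.48 at 8 h, 24 h and 2 weeks. Against control 8 h they were -0.80 (SE 4 h), -1.06 (SE 24 h) and -1.14 (SE 2 weeks), against control 4 h -1.15 (SE 8 h), -1.42 (SE 24 h) and -1.50 (SE 2 weeks), and against control 24 h -1.41 (SE 4 h) and -1.39 (SE 8 h). As a ratio to miR-16-5p they were -1.48, -0.46 and -1.32 at 4 h, 8 h and 2 weeks, to miR-191-5p -1.38, -0.71, -1.44 and -1.82, to miR-103-3p -0.79, -0.54, -1.33 and -1.51, to miR-423-5p -1.07, -0.66 and -1.92 at 4 h, 8 h and 2 weeks, and to miR-484 -0.80, -1.15, -2.35 and -2.05. The cause of these differences was not tested.

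All SE libraries stayed under the lowest control for miR-320-3p with each scaling. The same held with each library left out in turn (3 to 4 SE libraries counted), but this was fixed in advance. With every SE value under every control, leaving out a library cannot change it. miRNAs under the lowest control in all SE libraries numbered 8, and 13 without control 4 h. miRNAs at least 1.5-fold lower, 51, 25, 32 and 22 in time order, became 129, 103, 127 and 109 when 1 count sufficed, since more miRNAs were included. With a minimum of 100 CPM they were 28 (4 h), 20 (24 h) and 14 (2 weeks). At 2-fold they were 10 at 8 h and 12 at 2 weeks. With library size less miR-486b-5p they were 81 at 4 h and 45 at 8 h, and with library size only 75 at 24 h. The blocked fit called 0 miRNAs, 1 without the block, 1 with library size only, 10 with DESeq2 (adjusted p not given for 66 miRNAs), 15 when 1 count in 3 libraries sufficed, and 0 to 14 with the libraries of 1 time-point left out, the 14 without those of 4 h.

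Precision is limited by 1 pool per condition and not by depth for miR-320-3p, which had at least 3100 counts in each library. miR-320-5p had 47 to 311 counts and miR-877-5p 37 to 422, so differences in these are less certain.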
